A study of Mus musculus with 23 samples.

Results

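Tenascins, latent TGF-beta binding proteins (LTBPs), fibrillins, fibronectin and thrombospondin 1 are large glycoproteins of the extracellular matrix. This account follows the 10 genes named for these families, *Tnc*, *Tnr*, *Ltbp1*, *Ltbp2*, *Ltbp3*, *Ltbp4*, *Fbn1*, *Fbn2*, *Fn1* and *Thbs1*, among the 56941 genes that the count tables list. All 10 were found by gene symbol and Ensembl identifier, and all 10 passed the filter on low counts that 14488 genes passed. They were selected on the measured counts of CRE against RFP libraries, with that difference already known, so it is described for them below without a test.

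RNA came from primary hippocampal cultures of newborn (P0) homozygous Nedd8cKO mice, in which loxP sites flank part of *Nedd8*, the gene of a ubiquitin-like modifier. Cultures of 1 group received lentivirus that expresses RFP alone and those of the other received lentivirus that expresses CRE together with RFP, so every library carries the floxed allele and a red reporter. The virus was given after 1 day in vitro and RNA was taken on day 12 by the labels, a day later by the description of the methods. Both viruses use the Synapsin1 promoter, which is active mainly in neurons, so recombination is aimed at neurons while the RNA is that of all cells in the culture. The comparison used 21 libraries, 11 CRE and 10 RFP, and left out Nedd8Cre3-3 and Nedd8RFP3-2. Library names carry a 1, 2 or 3 after Cre or RFP, called the set here. The labels do not say what it marks. The number of animals or biological replicates that the study gives for these RNA data equals the number of sets, not of libraries. Libraries of 1 set may therefore share their source, and SEs and p-values over 11 and 10 libraries may be too small and may measure technical spread only.

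*Nedd8* itself had 5.92 to 18.0 CPM (counts scaled by the total and composition of the library) in the CRE libraries, with a median of 12.1, and 44.1 to 76.0 in the RFP libraries, with a median of 62.4. The 11 CRE libraries were all below every RFP library. Totals of counts ran from 7430401 to 13345552 in CRE and from 9833872 to 17112815 in RFP. Nedd8Cre1-3 and Nedd8RFP2-4 stood apart in the share of mitochondrial counts, at 0.261% and 3.44%, where the other 19 libraries of the comparison held 7.0% to 11.1%. Nedd8Cre3-3 had 1546796 counts in all, and 24.2% of the counts of Nedd8RFP3-2 came from the ribosomal repeat *Rn18s-rs5*.

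These proteins have different jobs in the matrix. Fibronectin forms fibrils that integrins pull on, and fibrillins polymerise into microfibrils to which elastin and the LTBPs attach. LTBPs bind the inactive complex of TGF-beta and hold it in the matrix until integrins or proteases release it. Tenascin-C is made by radial glia and reactive astrocytes, tenascin-R by oligodendrocyte lineage cells and some interneurons. Tenascin-R links the chondroitin sulphate proteoglycans of the perineuronal net. Thrombospondin 1, a protein that astrocytes secrete, can activate latent TGF-beta and promotes synapse formation through the calcium channel subunit that *Cacna2d1* encodes.

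The genes lie on separate stretches of the genome. In GRCm39, the build the authors used, *Tnc* spans chr4:63878014-63965443 on the minus strand, *Tnr* chr1:159351339-159759299 on the plus strand, *Fn1* chr1:71624673-71692419 on the minus strand and *Thbs1* chr2:117941974-117957616 on the plus strand. The LTBP genes span chr17:75312519-75699507 (*Ltbp1*, plus), chr12:84829986-84923306 (*Ltbp2*, minus), chr19:5790932-5808669 (*Ltbp3*, plus) and chr7:27004086-27037117 (*Ltbp4*, minus). *Fbn1* spans chr2:125142514-125349913 on the minus strand. Of the exon bases of *Fbn1*, 2442 lie opposite the noncoding gene *Gm9913*, which had 2 counts in all libraries. The strand setting of the counting is not given in the sources used here, so counts in such shared bases cannot be assigned with certainty.

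The 250 bases before the start of the canonical transcript are shown for *Tnc*, *Tnr* and *Ltbp1*, the tenascins and the LTBP with the largest difference, and for *Thbs1*, whose window was the one among the 10 that held a searched motif. They were read 5′ to 3′ on the strand of the gene from the GRCm39 genome. They lie at chr4:63965444-63965693 (*Tnc*), chr1:159351089-159351338 (*Tnr*), chr17:75485555-75485804 (*Ltbp1*) and chr2:117941724-117941973 (*Thbs1*). Capitals mark matches to TGANTCA, the core of the AP-1 motif.
Tnc: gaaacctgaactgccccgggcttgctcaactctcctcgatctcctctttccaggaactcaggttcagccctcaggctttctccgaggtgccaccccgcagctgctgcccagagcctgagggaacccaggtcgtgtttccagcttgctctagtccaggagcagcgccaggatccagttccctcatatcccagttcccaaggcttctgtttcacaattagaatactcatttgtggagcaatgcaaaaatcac
Tnr: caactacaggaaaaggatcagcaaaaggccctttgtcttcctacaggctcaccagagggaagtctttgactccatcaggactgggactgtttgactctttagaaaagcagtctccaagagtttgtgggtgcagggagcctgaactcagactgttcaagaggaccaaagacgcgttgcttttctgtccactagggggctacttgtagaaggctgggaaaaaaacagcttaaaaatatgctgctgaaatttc
Ltbp1: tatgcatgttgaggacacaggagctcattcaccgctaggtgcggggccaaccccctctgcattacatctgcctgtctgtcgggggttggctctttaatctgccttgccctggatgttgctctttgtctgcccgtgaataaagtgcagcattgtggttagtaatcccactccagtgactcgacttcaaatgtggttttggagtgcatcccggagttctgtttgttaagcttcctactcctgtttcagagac
Thbs1: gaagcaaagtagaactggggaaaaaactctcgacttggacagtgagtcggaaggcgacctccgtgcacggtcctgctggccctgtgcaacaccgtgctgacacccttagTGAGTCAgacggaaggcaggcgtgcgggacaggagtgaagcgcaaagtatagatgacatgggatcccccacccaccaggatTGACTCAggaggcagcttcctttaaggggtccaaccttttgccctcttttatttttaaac

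*Thbs1* had 2 matches to TGANTCA, at -141 to -135 and at -60 to -54, where -1 is the last base before the start. The motif was present in 6.18% of the 21667 promoter windows of the same length, and in 1 of the 10 described here. The letters TGACNNNGC (antioxidant response element, in 9.67% of all windows), GGAATG (TEAD, in 12.1%) and TATAAA (in 11.9%) were in none of the 10 on either strand, which says only that these letters are not in these windows. The *Ltbp1* window belongs to a start inside the gene. Other transcripts of *Ltbp1* start at its upstream end, at position 75312519, and counts per gene do not show which start was used.

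Compared per kilobase of exon, *Tnr* was the most abundant of the 10 genes in the RFP libraries, at 22.8 ± 3.41 CPM per kb (SD, n = 10), above 89.6% of all genes that passed the filter. *Ltbp4* followed with 3.71 ± 1.12, then *Thbs1* with 3.63 ± 3.29, *Ltbp3* with 2.59 ± 0.443, *Tnc* with 1.87 ± 0.346 and *Fn1* with 0.945 ± 0.344 CPM per kb. *Fbn1* (0.469 ± 0.189), *Fbn2* (0.430 ± 0.228), *Ltbp2* (0.156 ± 0.211) and *Ltbp1* (0.105 ± 0.0636) were the scarcest. In this order the libraries separated *Tnr* from *Ltbp4* and *Tnc* from *Fn1* without overlap, and all other neighbours overlapped in range. In CRE libraries the order was *Tnr* (11.4 ± 4.07 CPM per kb, n = 11), *Thbs1* (6.14 ± 4.43), *Tnc* (6.13 ± 1.07), *Ltbp3* (4.31 ± 1.90), *Ltbp4* (3.09 ± 2.04), *Fn1* (2.87 ± 1.58), *Ltbp1* (1.71 ± 0.587), *Fbn1* (0.657 ± 0.404), *Fbn2* (0.333 ± 0.307) and *Ltbp2* (0.241 ± 0.123). No neighbours in the CRE order were free of overlap.

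The plot of the members' values by library shows this spread gene by gene. By edgeR's quasi-likelihood test, 30.2% of all 14488 genes had an adjusted p under 0.05 in this comparison (16.4% higher, 13.8% lower in CRE). The 10 genes were chosen from this same difference, so that 5 of them are among those genes describes the choice and is no test of them. Their median log2 fold change was 0.67, where that of all genes tested was 0.02.

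**Figure D1:**
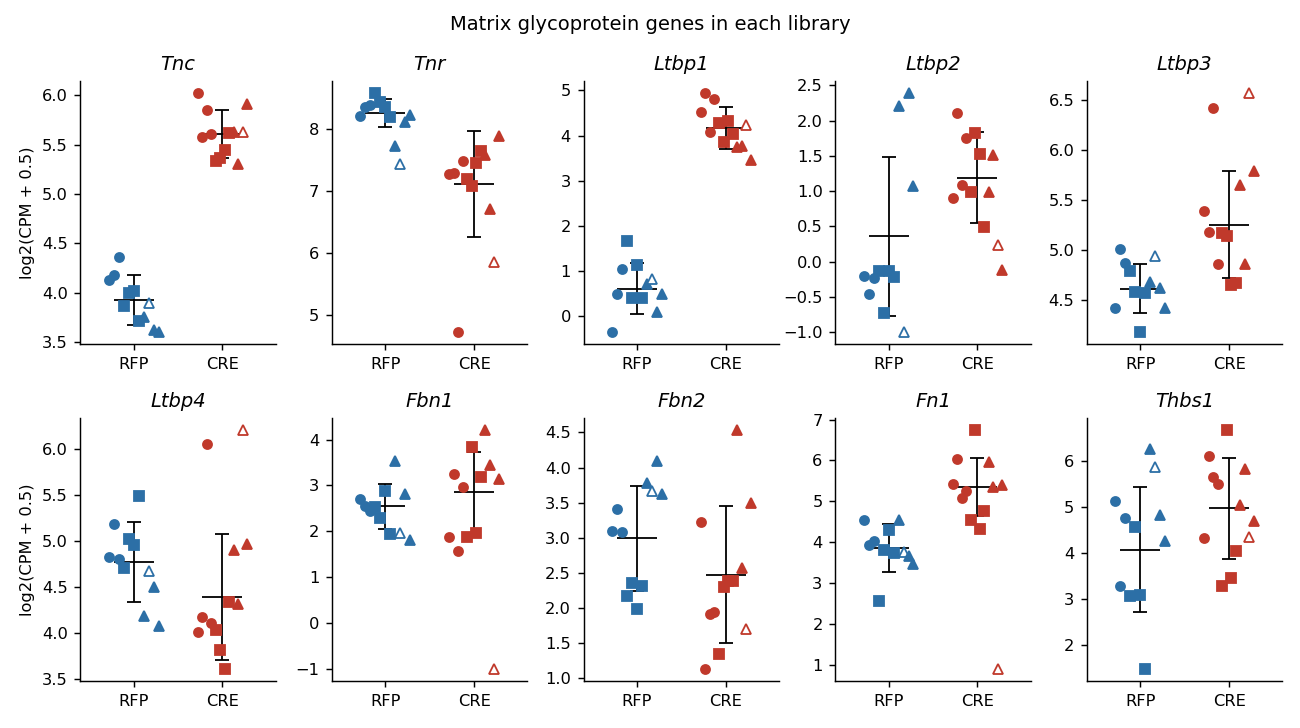
Level of each of the 10 genes in each library, as log2(CPM + 0.5). Circles, squares and triangles are sets 1, 2 and 3, open symbols are the 2 libraries left out of the comparison, and black lines give the mean and SD of the libraries compared; *Tnc* and *Ltbp1* are the 2 genes whose CRE and RFP libraries do not overlap.

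The tenascins differed in opposite directions. *Tnc* had 39 CPM in the lowest CRE library, a median of 48.3 and 64.6 in the highest, and 11.6, 14.8 and 20.0 CPM in the lowest, median and highest RFP library. Every CRE library was above every RFP library, and the lowest of them held 380 *Tnc* counts. On the log2 scale *Tnc* was higher by 1.69 ± 0.13 (SE, n = 11 and 10), or 3.23-fold, and it stayed between 1.56 and 1.78 over the 34 ways of processing that were tried.

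*Tnr* had 25.7 CPM in the lowest CRE library, a median of 156.0 and 234.9 in the highest, against 210.5, 311.4 and 382.7 CPM in the lowest, median and highest RFP library. All but 1 CRE library lay below the lowest RFP library, and Nedd8Cre3-4 lay between the RFP libraries. The lowest value was that of Nedd8Cre1-3, the library nearly free of mitochondrial counts. The log2 fold change was -1.02 ± 0.21, which is 2.03-fold lower, and -0.91 ± 0.12 over the 19 libraries without Nedd8Cre1-3 and Nedd8RFP2-4.

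Set against each other within a library, counts per exon base of *Tnr* were 9.54 to 16.0 times those of *Tnc* in RFP libraries, with a median of 12.7. In CRE libraries the ratio had a median of 2.15 and ran from 0.265, in Nedd8Cre1-3, to 2.40. A ratio within a library does not depend on the scaling between libraries. It shows an unequal change and not which gene changed.

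Among the LTBPs, *Ltbp1* was near the limit of detection in RFP libraries and well counted in CRE libraries. It had 0.276 to 2.67 CPM in RFP libraries, with a median of 0.907, resting on 3 to 32 counts per library. In CRE libraries it had 10.6 to 30.3 CPM, with a median of 16.3, from 120 to 414 counts. The groups did not overlap. The log2 fold change was 3.97 ± 0.30, or 15.7-fold, and ranged from 3.57 to 4.39 over the ways of processing. *Tnc* and *Ltbp1* were the 2 of the 10 genes with every CRE library above every RFP library, and 0 had the reverse. Of all genes compared for overlap, 4.76% were free of it, 2.66% with CRE above and 2.10% with CRE below, and nothing is read from the members' count.

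*Ltbp3*, which encodes another binder of latent TGF-beta, had 24.7 to 85.4 CPM in CRE libraries (median 35.6) and 17.6 to 31.8 in RFP libraries (median 23.7). The groups overlapped, with 7 of 11 CRE libraries above every RFP library. The highest value was that of Nedd8Cre1-3. In log2 terms CRE exceeded RFP by 0.71 ± 0.19 over the 21 libraries and 0.54 ± 0.15 over the 19 without Nedd8Cre1-3 and Nedd8RFP2-4.

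*Ltbp4*, whose protein also takes part in elastic fibre assembly, had 11.7 to 66.1 CPM in CRE libraries (median 17.6) and 16.3 to 44.4 in RFP libraries (median 27.7). Nedd8Cre1-3 alone was above all RFP libraries, while 4 CRE libraries were below them all. The log2 fold change was -0.29 ± 0.25 over the 21 libraries. Without Nedd8Cre1-3 it was -0.58, and over the 19 libraries it was -0.48 ± 0.18.

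*Ltbp2*, an LTBP that does not bind latent TGF-beta, was at the edge of detection. It had 0.419 to 3.80 CPM in CRE libraries (median 1.63) and 0.103 to 4.75 in RFP libraries (median 0.392), from as few as 1 count per library. The ranges overlapped throughout, and the log2 fold change was 0.63 ± 0.56.

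Taken as shares of the LTBP counts per exon base, *Ltbp4* made up a median of 55.1% in RFP libraries (41.5% to 69.4%) and 27.1% in CRE libraries (23.7% to 44.7%). *Ltbp1* made up 1.47% in RFP (0.427% to 3.77%) and 21.4% in CRE libraries (7.77% to 31.5%). The median share of *Ltbp3* was 41.5% in RFP and 46.5% in CRE libraries. The ratio of *Ltbp3* to *Ltbp4* had a median of 0.780 in RFP and 1.43 in CRE libraries, with ranges of 0.421 to 1.15 and 1.03 to 2.13 that overlap between 1.03 and 1.15.

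**Figure D2:**
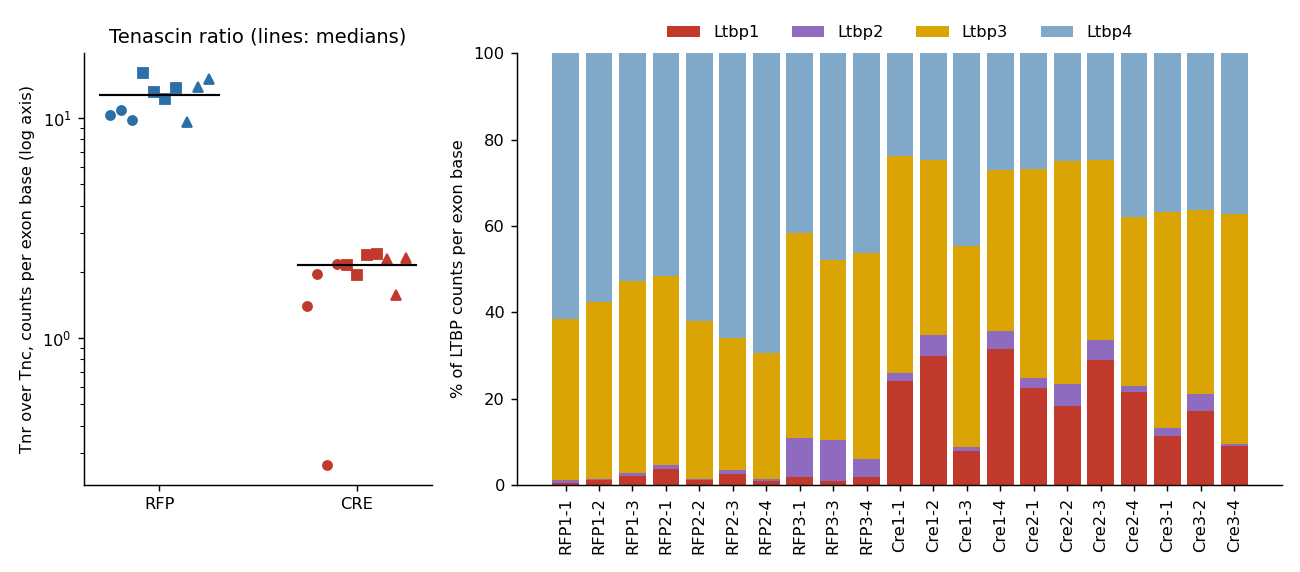
Left, *Tnr* over *Tnc* in counts per exon base for each library (log axis, lines at the medians, shapes for the sets); the RFP median is 12.7 and the CRE median 2.15. Right, the share of each LTBP gene in the LTBP counts per exon base of each of the 21 libraries, in percent; *Ltbp1* is 0.427% to 3.77% in RFP and 7.77% to 31.5% in CRE libraries.

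The fibrillins were low in both groups and spread widely. *Fbn1* had 2.45 to 18.1 CPM in CRE libraries (median 8.30) and 3.03 to 11.1 in RFP libraries (median 5.31). *Fbn2* had 1.68 to 22.8 CPM in CRE libraries (median 4.69) and 3.45 to 16.6 in RFP libraries (median 7.98). The ranges of both genes overlapped. Their log2 fold changes, 0.47 ± 0.32 for *Fbn1* and -0.38 ± 0.39 for *Fbn2*, had opposite signs.

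*Fn1* had 19.5 to 107.2 CPM in CRE libraries, with a median of 40.5, and 5.42 to 22.8 CPM in RFP libraries, with a median of 14.1. All but 2 of the 11 CRE libraries were above every RFP library, and Nedd8Cre2-1 and Nedd8Cre2-3 fell within the RFP range. The log2 fold change was 1.58 ± 0.27, or 3.00-fold. In the shallow Nedd8Cre3-3, left out of the comparison, *Fn1* was at 1.36 CPM, and the difference over all 23 libraries was 1.51 ± 0.33 on the log2 scale.

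*Thbs1* spread widely in both groups. CRE libraries ran from 9.18 to 102.3 CPM around a median of 32.7, and RFP libraries from 2.27 to 76.0 around a median of 21, so that the groups overlapped almost fully. The log2 fold change was 0.75 ± 0.46. Without Nedd8RFP3-1, the RFP library with the most *Thbs1*, it was 1.15.

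The 2 highest CRE libraries were the same for *Fn1* and *Thbs1*. Nedd8Cre2-2 was highest and Nedd8Cre1-2 next for both, at 107.2 and 65.0 CPM of *Fn1* and 102.3 and 69.1 CPM of *Thbs1*. Over the 11 CRE libraries, log2(CPM + 0.5) of the genes had a Pearson r of 0.823 (permutation p = 0.00177) and a Spearman rho of 0.727 (permutation p = 0.0145). The pair was 1 of 90 tested, 45 pairs in each group, and after Benjamini-Hochberg adjustment the p-values were 0.0796 and 0.443, so it did not pass. Without the 2 libraries farthest from the median of *Fn1*, r was 0.667. In the 10 RFP libraries r was 0.448 (permutation p = 0.195, adjusted 0.523). None of the 90 pairs passed after adjustment, and 12 had an unadjusted permutation p under 0.05 for r. Sets of 3 or 4 libraries are too small to give r within a set.

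Whether the difference between CRE and RFP depends on the set was tested, since the choice of the genes did not use it. By edgeR's interaction test 0 of the 10 genes passed, 2 had an unadjusted p under 0.05, and over all genes 1 of 14488 passed (0.00690%) with 595 under 0.05 unadjusted. The smallest p was that of *Ltbp2*, with log2 fold changes of 2.87 ± 0.74 in set 1, 2.51 ± 0.66 in set 2 and -1.32 ± 0.69 in set 3 (edgeR p = 0.000600, adjusted p = 0.652). In RFP libraries of set 3 it stood at 4.13, 4.75 and 1.61 CPM, and in those of sets 1 and 2 at 0.417 CPM or less. Without set 3 its log2 fold change was 2.67.

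*Ltbp4* had log2 fold changes of -0.10 ± 0.39, -1.15 ± 0.37 and 0.50 ± 0.42 in sets 1, 2 and 3 (edgeR p = 0.0220, adjusted p = 0.977). With Nedd8Cre1-3 and Nedd8Cre3-3 left out and Nedd8RFP3-2 taken in, the adjusted p of the interaction was 0.0469. Without set 2 the sign of its difference turned, to 0.18. For *Thbs1* the differences were 0.94 ± 0.77, 1.74 ± 0.73 and -0.11 ± 0.81, with an adjusted interaction p of 0.977.

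The other 7 genes kept 1 sign across the sets, though *Fbn1* was at 0.0015 in set 1 and *Fbn2* at -0.07 in set 2, both well within their SEs. *Tnc* had log2 fold changes of 1.55 ± 0.20, 1.55 ± 0.18 and 2.01 ± 0.21 in sets 1, 2 and 3. *Ltbp1* had 4.65 ± 0.50, 3.47 ± 0.42 and 3.81 ± 0.51, and *Fn1* had 1.30 ± 0.51, 1.78 ± 0.47 and 1.66 ± 0.54. *Ltbp3* was at 0.78 ± 0.32, 0.38 ± 0.29 and 0.92 ± 0.34, and *Tnr* at -1.34 ± 0.38, -1.06 ± 0.36 and -0.58 ± 0.41. The difference of *Ltbp3* in set 2 and that of *Tnr* in set 3 exceeded their SEs only narrowly. Without set 2 the difference of *Tnr* over the other sets was -0.96, and without set 3 that of *Ltbp3* was 0.62.

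**Figure D3:**
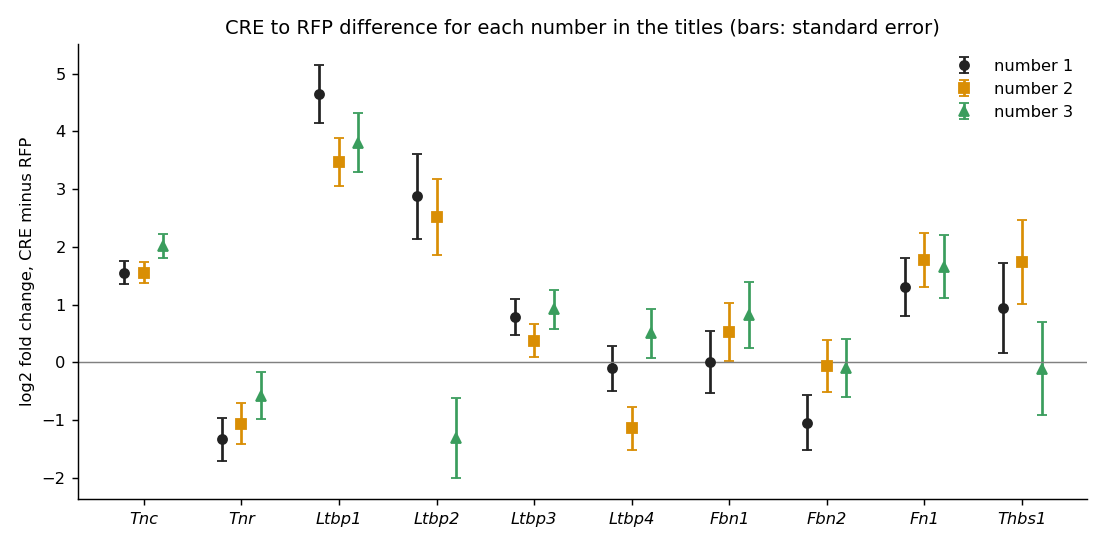
Log2 fold change, CRE minus RFP, of each gene in sets 1, 2 and 3 (points with SE from the model with a difference for each set). *Tnc*, *Ltbp1*, *Fn1* and *Ltbp3* are above 0 and *Tnr* is below 0 in all 3 sets, while *Ltbp2* is at 2.87 and 2.51 in sets 1 and 2 and at -1.32 in set 3.

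The control level of *Fbn2* differed between sets. In RFP libraries it was at 8.0, 10.1 and 7.95 CPM in set 1, at 4.00, 4.61, 3.45 and 4.45 CPM in set 2, and at 13.2, 16.6 and 11.8 CPM in set 3. The sets did not overlap. By edgeR's test of the set number within RFP the adjusted p was 0.0279, where 0.542% of 15488 genes passed. *Fbn2* was the 1 member of 10 to pass, 4 had an unadjusted p under 0.05, and *Ltbp2* was next at an adjusted p of 0.0699. The call for *Fbn2* was lost on leaving out any of Nedd8RFP1-1, 1-3, 2-1, 2-3, 3-1, 3-3 or 3-4, with adjusted p of up to 0.138 over the alternatives. In CRE libraries the means of sets 1 to 3 were 4.27 ± 3.11, 3.96 ± 1.29 and 13.0 ± 8.88 CPM (SD, n = 4, 4 and 3).

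The genes that work with these proteins were followed in 5 lists, of which 64 of 79 genes passed the filter and 39 were called, 29 higher and 10 lower in CRE. That is 60.9% of those tested, beside 30.2% of all genes. Without set 1, 2 or 3 the calls were 34, 28 and 28. The lists were written with earlier results of these data known, so the count is not independent evidence of a direction. All values below are edgeR log2 fold changes with SE and p adjusted over all genes.

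Of the list around latent TGF-beta and its signalling, 19 of 23 genes were tested, 8 rose and 1 fell, with a median log2 fold change of 0.35. The 9 calls became 5 without set 2 and 5 without set 3. *Ccn2*, the gene of a matrix protein induced by TGF-beta and by YAP, rose from 10.2 ± 4.50 to 87.3 ± 36.2 CPM (3.08 ± 0.28, adjusted p = 5.36e-09). *Tgfbr2*, which encodes the type II receptor, rose from 7.81 ± 3.07 to 23.1 ± 5.25 CPM (1.55 ± 0.20, adjusted p = 2.09e-06). *Itgav*, the integrin subunit that releases TGF-beta from its latent complex, rose from 69.1 ± 15.3 to 156.3 ± 48.8 CPM (1.16 ± 0.18, adjusted p = 1.55e-05). *Skil*, a repressor of SMAD proteins that the pathway induces, fell from 83.3 ± 18.6 to 57.6 ± 18.6 CPM (-0.55 ± 0.18, adjusted p = 0.0206), a call that was lost without set 2 and without set 3. The ligand gene *Tgfb2* was at 40.1 and 48.5 CPM in RFP and CRE libraries (0.26 ± 0.15, adjusted p = 0.198) and did not pass. *Tgfb1* was under the filter, with a mean of 0.956 CPM in CRE and 0.148 in RFP libraries. Another ligand gene, *Tgfb3*, rose from 9.30 ± 3.72 to 15.2 ± 7.67 CPM and passed narrowly (0.69 ± 0.26, adjusted p = 0.0497). *Tgfb1*, *Tgfb2* and *Tgfb3* were added after their values were seen.

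Of the genes of microfibrils and elastic fibres, 19 of 22 were tested, 9 rose and 2 fell, with a median of 0.88. *Loxl1*, a cross-linker of elastin, rose from 2.77 ± 1.65 to 23.2 ± 25.6 CPM (3.05 ± 0.45, adjusted p = 1.03e-05). *Loxl3*, of the same enzyme family, rose from 7.42 ± 1.85 to 16.7 ± 4.96 CPM (1.15 ± 0.19, adjusted p = 4.37e-05), and *Fbln1*, the gene of fibulin 1, from 4.82 ± 2.26 to 13.1 ± 7.77 CPM (1.43 ± 0.30, adjusted p = 0.000688). The genes that fell were *Adamts17*, from 21 ± 5.01 to 10.0 ± 2.87 CPM (-1.09 ± 0.18, adjusted p = 4.12e-05), and *Thsd4*, from 8.70 ± 4.75 to 3.90 ± 1.71 CPM (-1.18 ± 0.31, adjusted p = 0.00520), and both encode proteins that act on fibrillin microfibrils. The call of *Thsd4* was lost without set 1.

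Of the 5 lists the receptors had the largest share of calls, with 16 of 18 tested genes, 11 higher and 5 lower, and a median of 0.67. Beside *Itgav*, the heparan sulphate proteoglycan genes *Sdc4* (38.1 ± 7.75 to 89.5 ± 31.5 CPM, 1.21 ± 0.18, adjusted p = 1.46e-05) and *Sdc1* (5.94 ± 2.57 to 16.6 ± 4.56 CPM, 1.46 ± 0.23, adjusted p = 1.85e-05) rose. The lower ones included the tenascin-R receptor gene *Cntn1* (598.6 ± 77.3 to 272.4 ± 90.5 CPM, -1.15 ± 0.21, adjusted p = 0.000145) and the thrombospondin receptor gene *Cacna2d1* (194.9 ± 42.3 to 82.6 ± 27.4 CPM, -1.26 ± 0.24, adjusted p = 0.000302). *Itga4*, an integrin subunit that binds fibronectin, fell as well (14.8 ± 6.42 to 5.6 ± 3.46 CPM, -1.41 ± 0.38, adjusted p = 0.00569), but was not called without set 2 or without set 3. Also lower was *Itga9*, another integrin subunit gene (5.29 ± 2.24 to 2.76 ± 1.77 CPM, -0.95 ± 0.34, adjusted p = 0.0351). So was *Ptprz1* (1067 ± 217 to 633.8 ± 237 CPM, -0.77 ± 0.21, adjusted p = 0.00747). *Itga9* and *Ptprz1* were added after their values were seen. The higher members thus include integrin subunit and syndecan genes, but integrin subunit genes are among the lower ones too. *Cntn1* and *Cacna2d1* are genes that neurons express.

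Of the perineuronal net, in which tenascin-R sits, 7 of 10 genes were tested. *Hapln1*, a link protein gene, fell from 248.6 ± 73.1 to 70.6 ± 27.1 CPM (-1.83 ± 0.28, adjusted p = 1.94e-05) and *Ncan*, the neurocan gene, from 989.2 ± 202 to 420.3 ± 111 CPM (-1.25 ± 0.15, adjusted p = 4.37e-07). *Acan*, the aggrecan gene, rose from 14.5 ± 12.4 to 77.8 ± 88.3 CPM (2.42 ± 0.48, adjusted p = 0.000393), with CRE libraries from 24.5 to 291.9 CPM. The other 4 did not pass, and the median was 0.06. Of the other tenascins and thrombospondins 3 of 6 were tested, and *Thbs2* rose from 1.5 ± 1.55 to 17.4 ± 11.1 CPM (3.53 ± 0.46, adjusted p = 1.67e-06), with every CRE library above every RFP library.

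**Figure D4:**
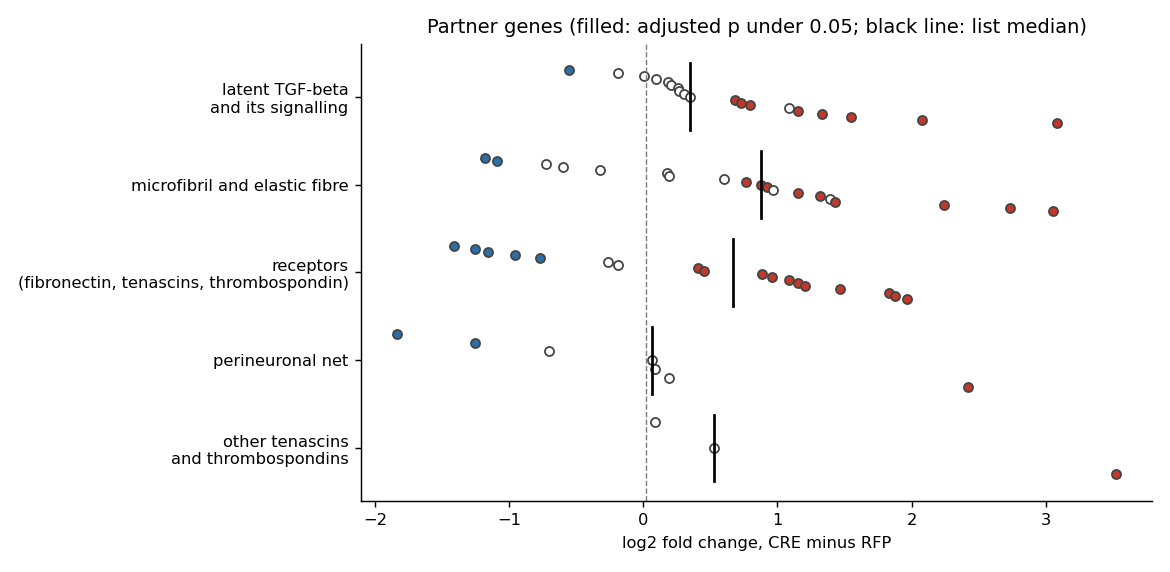
Log2 fold change, CRE minus RFP, of each tested gene of the 5 lists, with genes of adjusted p under 0.05 filled (red higher, blue lower) and a black line at the list's median. The dashed line is the median of all genes tested, 0.02; receptors have 16 of 18 genes filled, the perineuronal net 3 of 7.

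Several of these genes are expressed by cells other than neurons, so marker genes of 7 cell types were followed. In bulk RNA, fewer cells of a type and less RNA per cell cannot be told apart. Markers of the oligodendrocyte lineage, a main source of *Tnr*, summed to 451.1 to 1982 CPM in CRE libraries (median 832.2) and 690.6 to 2318 in RFP libraries (median 1825), and 8 of 11 tested fell with 0 rising. *Olig2* fell from 186.4 ± 49.8 to 94.8 ± 36.1 CPM (edgeR, -1.0 ± 0.21, adjusted p = 0.000839) and *Pdgfra* from 253.6 ± 81.0 to 42.3 ± 62.4 CPM (-2.60 ± 0.72, adjusted p = 0.00866), while *Olig1*, at 733.7 and 645.1 CPM, did not pass. The 8 calls became 5 without set 1 and 3 without set 2, where *Pdgfra* was not called, and *Olig2* was not called without set 2. Markers of neurons summed to a median of 5764 CPM in CRE (4107 to 7129) and 8147 in RFP libraries (7166 to 8474), with 6 of 12 lower and 1 higher, and 4 called without set 2. The part of these shifts in the lower *Tnr* was not tested.

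Mesenchymal and mural cells, which make *Fn1*, *Thbs1*, fibrillins and LTBPs, had a marker sum of 194.3 to 609.5 CPM in CRE libraries (median 379.2) and 31.1 to 213.6 in RFP libraries (median 111.2). Of 13 tested markers 4 rose and 0 fell, and 2 were called without set 2. In CRE libraries the sum was led by *Rgs5*, with RFP and CRE means of 25.3 ± 12.6 and 147.3 ± 80.1 CPM (edgeR, 2.52 ± 0.39, adjusted p = 1.78e-05), and *Foxc1*, at 3.62 ± 1.66 and 55.8 ± 21.1 CPM (3.92 ± 0.27, adjusted p = 9.98e-11). *Col3a1*, at 11.6 ± 11.0 and 32.5 ± 41.5 CPM, did not pass (1.47 ± 0.65, adjusted p = 0.0923). In RFP libraries *Dcn*, the decorin gene, had the highest mean, at 25.9 ± 12.8 CPM, beside 12.4 ± 15.0 in CRE libraries (edgeR, -1.08 ± 0.53, adjusted p = 0.127). The smooth muscle actin gene *Acta2* was at 4.72 and 4.52 CPM in RFP and CRE libraries (edgeR, -0.07 ± 0.61, adjusted p = 0.954). *Dcn* and *Acta2* were added after their values were seen. Without *Rgs5* and *Foxc1* the other 14 markers summed to a mean of 96.0 CPM in RFP (23.4 to 169.8) and 151.3 in CRE libraries (35.5 to 448.5), so the ranges overlapped. None of the 16 markers was at 0 in all 21 libraries, and the part of this shift in the higher *Fn1* or *Ltbp1* was not tested.

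Astrocyte and progenitor markers moved in both directions. Of 12 astrocyte markers 3 rose and 4 fell, with summed medians of 5251 CPM in CRE (1867 to 5938) and 6706 in RFP libraries (4166 to 8633). Without set 2, 1 of the 12 was called. *Slc1a2*, a glutamate transporter gene, fell from 2095 ± 414 to 1229 ± 396 CPM (edgeR, -0.79 ± 0.18, adjusted p = 0.00134) and was not called without set 2. *Aldoc* fell as well (edgeR, -0.64 ± 0.25, adjusted p = 0.0490), and *Slc1a3* did not pass (-0.10 ± 0.20, adjusted p = 0.758). The 3 that rose were added after their values were seen. They were *Sox9* (edgeR, 1.02 ± 0.18, adjusted p = 0.000107), *Gja1* (0.62 ± 0.20, adjusted p = 0.0199) and *Gjb6*. *Gjb6*, at a mean of 1.56 CPM in RFP libraries, had 2.00 ± 0.47 (edgeR, adjusted p = 0.00196). Of 10 progenitor markers 4 rose and 2 fell, with sums of 1237 to 3076 CPM in CRE (median 2178) and 1037 to 1461 in RFP libraries (median 1165). *Nes*, the nestin gene, rose from 126.2 ± 16.7 to 976.6 ± 305 CPM (edgeR, 2.93 ± 0.16, adjusted p = 1.54e-12), with all 11 CRE libraries above every RFP library, and *Vim*, the vimentin gene, from 177.2 ± 60.1 to 470.1 ± 199 CPM (1.39 ± 0.21, adjusted p = 1.27e-05). *Fabp7*, a radial glial marker, fell from 560.5 ± 66.8 to 364.5 ± 152 CPM (edgeR, -0.64 ± 0.22, adjusted p = 0.0258), though not without set 2 or without set 3. *Hes5*, a Notch target added after its values were seen, fell from 12.4 ± 6.10 to 1.30 ± 0.478 CPM (edgeR, -3.27 ± 0.33, adjusted p = 4.11e-08), with every CRE library below every RFP library. Without *Nes* and *Vim* the other 8 markers summed to a mean of 678.3 CPM in CRE (324.5 to 906.1) and 880.2 in RFP libraries (658.3 to 1078). Microglial markers summed to 0.341 to 8.06 CPM in CRE and 1.09 to 6.56 in RFP libraries, and endothelial ones to 1.63 to 12.7 and 3.88 to 9.85. *Cx3cr1* of microglia was at 0 in all CRE libraries and *Cldn5* of endothelial cells at 0 in all RFP libraries. Both were near 0 in the other group too, with a mean of 0.114 CPM for *Cx3cr1* in RFP and 0.0375 CPM for *Cldn5* in CRE libraries. Of these lists 2 of 10 and 1 of 10 genes were tested, of which *Tmem119* rose (3.21 ± 0.66, adjusted p = 0.000517) and *Kdr* fell (-1.22 ± 0.43, adjusted p = 0.0346, not called without set 1 or without set 3), and *Cx3cr1* and *Cldn5* were added after their values were seen. The part of any of these lists in the members' levels was not tested.

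Within a group, the members were set against the 7 marker sums in 140 tests over libraries. None passed after Benjamini-Hochberg adjustment, and 23 had an unadjusted permutation p under 0.05 for Pearson's r. *Tnr* and the oligodendrocyte lineage sum had r = 0.870 in RFP libraries (permutation p = 0.00585, adjusted 0.117) and rho = 0.588 (permutation p = 0.0821, adjusted 0.426), and r was 0.430 without the 2 libraries farthest from the median of *Tnr*. In CRE libraries r was -0.462 (permutation p = 0.166, adjusted 0.509), and 0.814 without Nedd8Cre1-3. *Thbs1* and the mesenchymal and mural sum had r = 0.826 in RFP libraries (permutation p = 0.00443, adjusted 0.103) with rho = 0.830 (permutation p = 0.00456, adjusted 0.165), 0.647 without the 2 farthest libraries. In CRE libraries the r of this pair was 0.100 (permutation p = 0.766, adjusted 0.892). *Tnc* and the astrocyte sum had r = 0.871 in RFP libraries (permutation p = 0.00102, adjusted 0.103) with rho = 0.830 (permutation p = 0.00463, adjusted 0.165), 0.750 without the 2 farthest. In CRE libraries r was 0.603 (permutation p = 0.0301, adjusted 0.263). Other pairs had a permutation p under 0.00585 as well, at 0.103 adjusted. In CRE libraries these were *Thbs1* and neurons (r = -0.834, permutation p = 0.00193) and *Tnr* and neurons (0.697, permutation p = 0.00326). *Ltbp4* and the oligodendrocyte lineage had 0.814 (permutation p = 0.00321) there, 0.574 without Nedd8Cre1-3. In RFP libraries *Ltbp2* and that lineage had -0.801 (permutation p = 0.00429).

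**Figure D5:**
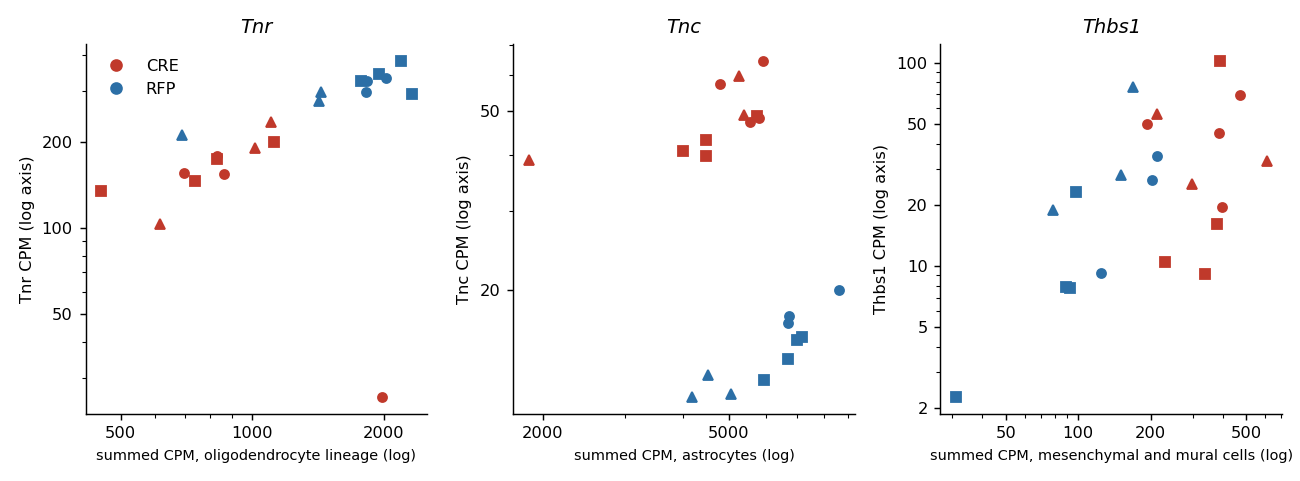
CPM of *Tnr*, *Tnc* and *Thbs1* in each of the 21 libraries against the summed CPM of markers of the oligodendrocyte lineage, astrocytes, and mesenchymal and mural cells (log axes, shapes for the sets). CRE *Tnc* points lie above all RFP points, at astrocyte sums of 1867 to 5938 CPM in CRE and 4166 to 8633 CPM in RFP libraries, and the *Tnr* point at 25.7 CPM is Nedd8Cre1-3.

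As a last description, the genes most like each member were found by Pearson's r of log2(CPM + 0.5) after removal of the group means, over the 21 libraries, which share depth and quality differences. For *Fn1* they were *Col6a2* (r = 0.76), *Lox* (0.73) and *Tagln* (0.72), and for *Thbs1* *Tpm2* (0.87), *Acta2* (0.87) and *Bgn* (0.86). For *Fbn1* they were *Cped1* (0.89), *St8sia6* (0.84) and *Loxl2* (0.84), and for *Fbn2* *Knstrn* (0.79), *Pimreg* (0.77) and *Supt7l* (0.76). *Tnr* was most like *Cdk14*, *Marchf1* and *Cd200* (0.96 each), and *Tnc* like *Susd6* (0.80), *Tagln2* (0.78) and *Tpcn2* (0.76). Of the 21 libraries, Nedd8Cre1-3 had the lowest *Tnr* and the highest *Ltbp3* and *Ltbp4*. The r values of these 3 genes may therefore rest largely on that library, and r without it is not given. The LTBP genes had unlike neighbours. They were *Hs3st3b1* (0.74), *Gm3375* (0.71) and *Rbbp6* (0.71) for *Ltbp1*, *Pvalb* (0.83), *Myof* (0.73) and a gene with no symbol (0.73) for *Ltbp2*, *Rere* (0.89), *Nbeal2* (0.80) and *Polg* (0.79) for *Ltbp3*, and *Agrn* (0.91), *Ncdn* (0.90) and *Celf5* (0.90) for *Ltbp4*.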

How the data were processed

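Libraries were prepared by the authors with a stranded Illumina mRNA kit. Per the labels and the submitters' processing notes, reads were converted with bcl2fastq 2.20.0.422, aligned with STAR 2.7.8a to GRCm39 and counted per gene with featureCounts 1.5.0-p1. The authors deposited raw counts for each library, without normalization. Groups came from the treatment labels. The members, lists and motifs were chosen with earlier results of these data known.

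The 21 libraries compared are those whose means match the study's own differential expression analysis, while its methods name Nedd8Cre1-3 and Nedd8Cre3-3 as removed, which was run as an alternative. Counts were tested with edgeR 4.0.16 in R 4.3.3 (filterByExpr, TMM factors, robust quasi-likelihood fit) and Benjamini-Hochberg adjusted p-values taken across the full table, called at 0.05. SEs were derived from the F statistic and the fold change. CPM used TMM factors over all 23 libraries. Named genes are all 10 members and up to 3 higher and 3 lower genes of smallest p in each partner list. Also named are the 3 most abundant of each marker list and the 3 genes most like each member. Some of these marker genes are not printed, among them genes that passed the filter. Other genes were added after their values were seen, as stated where they appear. Permutation tests used 100000 resamples and are two-sided. In counts simulated for the CRE and RFP comparison over 14488 genes, 166 of 197 changed genes tested were called, with 7 unchanged ones. Alternatives covered the libraries, DESeq2 1.42.0, its size factors, the filter, a block, each library or set left out, and, added later, counts summed per virus and set. No libraries were duplicates within counting noise. Gene names, exon lengths and promoter windows came from the GENCODE M39 annotation of GRCm39. Python 3.11.15 with numpy 2.4.6, pandas 2.3.3, scipy 1.17.1 and matplotlib 3.10.9 did the rest.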

Additional observations from a re-analysis of the deposited data

Results flagged for a closer look

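In the RFP group, Nedd8RFP3-1 stood far from the other 9 libraries for *Thbs1*, at 76.0 CPM, and for *Fbn1*, at 11.1 CPM, by Dixon's criterion at 95% for 10 values. Chance alone marks about 1 in 20 groups, and 10 genes were looked at in the RFP libraries.

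The library Nedd8Cre3-3, left out of the comparison, held 1546796 counts in all. Its levels of *Tnc* (49.1 CPM), *Ltbp1* (18.4 CPM), *Ltbp3* (94.8 CPM) and *Ltbp4* (73.7 CPM) were above those of every RFP library compared. Those of *Tnr* (57.3 CPM), *Fn1* (1.36 CPM), *Fbn1* (0 CPM) and *Fbn2* (2.73 CPM) were below them all, with 2 counts of *Fn1* and 4 of *Fbn2*. Mitochondrial counts were 1.83% of its total.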

How the results depend on the processing

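The count of members called stayed at 5 or 6, except 4 without set 2, where *Tnr* was not called. Without set 3 *Ltbp3* lost the call and *Ltbp2* gained it. The members were chosen on this difference, so a steady count is no support for it. Leaving out each library in turn gave 5 to 6 members, 35 to 41 partner genes (39 as reported), 32 to 37 marker genes (34), 0 members for the interaction with the set, and 0 to 1 members for the set within RFP. Without set 2, 17 marker genes passed. The interaction had 1 member without Nedd8Cre1-3 and Nedd8Cre3-3 (*Ltbp4*) and 1 with no filter (*Thbs1*, adjusted p = 0.0368), and the set within RFP had 2 with no filter. *Ltbp4* turned to 0.18 without set 2, *Slc1a3* to 0.081 without Nedd8Cre1-3 and Nedd8Cre3-3, and *Olig1* to 0.28 with all 23 libraries and to 0.052 without set 2. The cause was not tested. Over 36 named partner and marker genes, 1126 of 1177 values kept sign and side of the threshold, 43 lost and 5 gained the call and 3 changed sign. Of all genes, 4370 of 14488 were called, 6920 of 32701 with no filter and 2114 of 14745 without set 2.

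With the counts of each virus and set added up, 3 sums against 3, an alternative chosen after seeing the data, 5 members, 36 of 75 partner genes and 27 of 69 marker genes were called, and 4198 of 18417 genes in all. *Acan*, *Pdgfra* and *Aldoc* lost their calls there, and the calls of the astrocyte and oligodendrocyte lineage lists became 3 and 5.

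For same-numbered sets of CRE and RFP the correlation of deviations was 0.0326, 0.00358 and 0.155 for sets 1 to 3. Such values cannot tell whether same-numbered libraries share a source. With the set as a block 5 members were called, and 4267 of all genes, and with the rep number as a block 5 and 4235.

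Depth limits *Ltbp2* and *Ltbp1* in RFP libraries, with as few as 1 and 3 counts per library. Beside the virus, libraries differed in quality and in the levels of cell type markers. Sets 1 to 3 occur in both groups.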
